A study of Homo sapiens with 18 samples.

Results

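Transcripts of 40 genes that interferons induce, or that load and display peptides on class I molecules of the major histocompatibility complex (MHC), were followed across 6 clones of RPE1, a human retinal pigment epithelial line made immortal in culture. The 40 were a fixed list of names, matched by Ensembl identifier to the 57773 genes of the deposited table, and all 40 were found. CGAS, the DNA sensor upstream of several of them, was read beside them. By role, 12 act against viral RNA or translation, 6 in membranes, 3 belong to the ISG15 system, 4 are other induced proteins, 3 are sensors or their adaptor, 4 are transcription factors, 4 are MHC class I molecules and 4 supply peptides.

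All 6 clones descend from cells exposed to ZM447439 (2.5 uM, 72 h), which blocks Aurora B and can leave a cell with a doubled genome, and then kept for weeks before single cells were cloned and their ploidy was read by FACS. Each tetraploid clone (4N-1, 4N-2 and 4N-3) has a diploid partner from its own plates (2N-1, 2N-2 and 2N-3). Clones 4N-2 and 2N-2 had also been labelled with Hoechst 33342 before they were sub-cloned. The diploid clones had met the drug too, so no group was untreated. Each clone grew from 1 cell, so what is due to ploidy and what to the single clone cannot be told apart within a pair. Each clone has 3 libraries, A, B and C, named biological replicates in the series, with 37.2 to 54.4 M reads in genes (M is the SI prefix mega).

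As background, double-stranded DNA in the cytosol is bound by cGAS (CGAS), which makes a cyclic dinucleotide that activates STING (TMEM173, now STING1), while the helicases RIG-I (DDX58) and MDA5 (IFIH1) sense viral RNA. Both routes lead to interferons, which act through their receptors and a complex that holds STAT2 and IRF9 on a promoter element, the ISRE. The genes so induced block viral replication, and interferon also raises MHC class I molecules with the proteasome subunits and transporters that feed them. Cultured epithelial cells keep many of these genes at a low level with no added interferon.

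The promoters of 4 members are shown first because each holds the ISRE letters and yet the 4 genes went different ways in the second pair: IFIT1 and ISG20 rose, and IFI44L and BST2 fell. They were chosen after these values were seen. Each line gives the 250 bases before the RefSeq start in GRCh38.p14, 5′ to 3′ on the strand of the gene, and capitals mark the ISRE letters, GAAA then NN then GAAA, on either strand.
IFIT1: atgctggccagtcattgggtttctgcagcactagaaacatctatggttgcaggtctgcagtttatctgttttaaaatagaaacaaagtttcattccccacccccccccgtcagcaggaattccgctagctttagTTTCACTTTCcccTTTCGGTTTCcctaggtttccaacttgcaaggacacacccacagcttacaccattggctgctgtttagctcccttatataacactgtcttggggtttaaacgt
ISG20: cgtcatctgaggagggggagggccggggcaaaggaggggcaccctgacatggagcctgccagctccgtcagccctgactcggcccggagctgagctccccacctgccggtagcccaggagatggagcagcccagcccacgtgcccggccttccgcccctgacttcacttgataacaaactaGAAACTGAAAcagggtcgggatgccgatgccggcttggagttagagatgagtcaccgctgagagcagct
IFI44L: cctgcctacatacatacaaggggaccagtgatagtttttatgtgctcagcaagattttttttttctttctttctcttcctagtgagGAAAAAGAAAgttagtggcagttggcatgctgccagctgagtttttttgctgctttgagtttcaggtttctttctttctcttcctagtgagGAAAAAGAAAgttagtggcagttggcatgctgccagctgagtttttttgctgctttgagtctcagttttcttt
BST2: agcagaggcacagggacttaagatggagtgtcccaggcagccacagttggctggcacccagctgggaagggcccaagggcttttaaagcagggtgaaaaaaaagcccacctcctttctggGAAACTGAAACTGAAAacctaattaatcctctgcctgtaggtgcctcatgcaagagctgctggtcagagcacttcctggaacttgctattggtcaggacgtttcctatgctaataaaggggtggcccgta
These lie at chr10:89392373-89392622 (plus strand), chr15:88638766-88639015 (plus), chr1:78620198-78620447 (plus) and chr19:17405631-17405880 (minus). In IFIT1 the 2 matches start 116 and 103 bases before the start site, and in BST2 130 and 124 bases before it, so that those of BST2 share letters. IFI44L holds its pair of matches in a repeated stretch, 164 and 73 bases before the start, and ISG20 has 1 match, 69 bases before it. Of the 40 members, 31 had a RefSeq promoter entry (250 bases before to 50 after the start). The ISRE letters were in 19 of these 31 (61.3%) against 3.57% of all 35116 promoters of that length, in 16 of 24 interferon-stimulated members and in 3 of 7 MHC class I and peptide supply members (B2M, TAP1 and TAP2). The GAS letters TTCNNNGAA, which read the same on both strands, were in 7 of 31 (22.6%) against 7.66% of all promoters, and 3 of the 8 GAS matches overlapped an ISRE match. The ISRE is a textbook feature of such genes, so the share describes the list and is no result of these libraries.

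The deposited values are reads per kilobase per M reads (RPKM), and the length used is the genomic span with introns, so a member with long introns has a low RPKM for its reads. Of the 40 members, 24 reached 1 RPKM in 3 or more libraries and were tested as log2(RPKM + 0.5), a scale that understates the change of low genes. Another 15 were tested on whole reads recovered from the values, and RSAD2, with 41 reads in all 18 libraries, was in no fit. "Rose" and "fell" mean an adjusted p below 0.05 over all genes tested, 9704 on RPKM and 23391 on reads, in limma fits of 6 clone means. Levels are RPKM for the 24 and reads per M for the 15 and CGAS. Library A of 2N-3 stood apart, with a median log2 deviation from its clone of 0.474 for the 25% of genes with the fewest exon bases and -0.193 for the 25% with the most. In C of 4N-3, 20 of 24 tested members were above the mean of A and B, in B of 2N-2 18 were above and in C of 2N-2 20 were below those of the other 2 libraries. Markers of pigment epithelium were partly present: KRT8, KRT18, OTX2, MITF and BEST1 were detected, while RPE65 had 117 reads, TYR 13 and TTR 1 over all libraries. On reads in pair 2, RPE65 (-2.99), TYRP1 (-2.57), PMEL (-0.81) and OTX2 (-0.76) fell. LRAT (1.54), BEST1 (0.88), KRT18 (0.42) and KRT8 (0.40) rose there. TYRP1, PMEL, BEST1, KRT18 and KRT8 lost the call without some single libraries. Of 14 blood and immune markers, CD3E, NKG7 and HBB were at 0, and the summed level was 140.6 to 158.5 reads per M in 4N-2, mostly CD68, against 36.7 to 69.3 elsewhere. Of 7 markers of fibroblasts and endothelium found, 1 rose in pair 2 (THY1, 1.47) and 3 fell (DCN, PDGFRB and COL1A1, at -2.34, -0.98 and -0.88), and their sum, mostly THY1 in 4N-2, was 876 to 950 reads per M there against 406 to 577 elsewhere. Markers moved in the other pairs too. In pair 1, RPE65 (1.95), KRT18 (0.73), KRT8 (0.43) and COL1A1 (1.72) rose, and CD68 (-0.73) and PDGFRA (-1.38) fell. PDGFRA also fell in pair 3 (-1.135). KRT8 in pair 1 and PDGFRA in pair 3 lost the call without some single libraries. The part of these marker changes in the differences between clones was not tested. In bulk RNA, fewer cells expressing a gene and less RNA per cell cannot be told apart.

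Per kilobase of exon, which allows levels of different genes to be set side by side, the members ran from abundant to barely detected. HLA-C had the highest mean level, 108 reads per M per kilobase, then B2M at 95.5, and IFITM3 (39.3), HLA-E (38.6) and STAT2 (37.3) followed. In the middle were TMEM173 (9.83), DDX58 (5.45), ISG15 (5.04) and IFIT1 (3.51). At the low end stood OAS2 (0.351), CGAS (0.0674), MX1 (0.0673), XAF1 (0.0577) and MX2 (0.013), with RSAD2 lowest. So the transcript of TMEM173 was far more abundant than that of CGAS, whose protein acts upstream of STING. Protein was not measured here. Of 13 genes for interferon ligands, 12 had 0 to 2 reads over all 18 libraries, IFNB1 among them with 1 read; IFNE, the interferon of epithelia, was the exception.

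**Figure D1:**
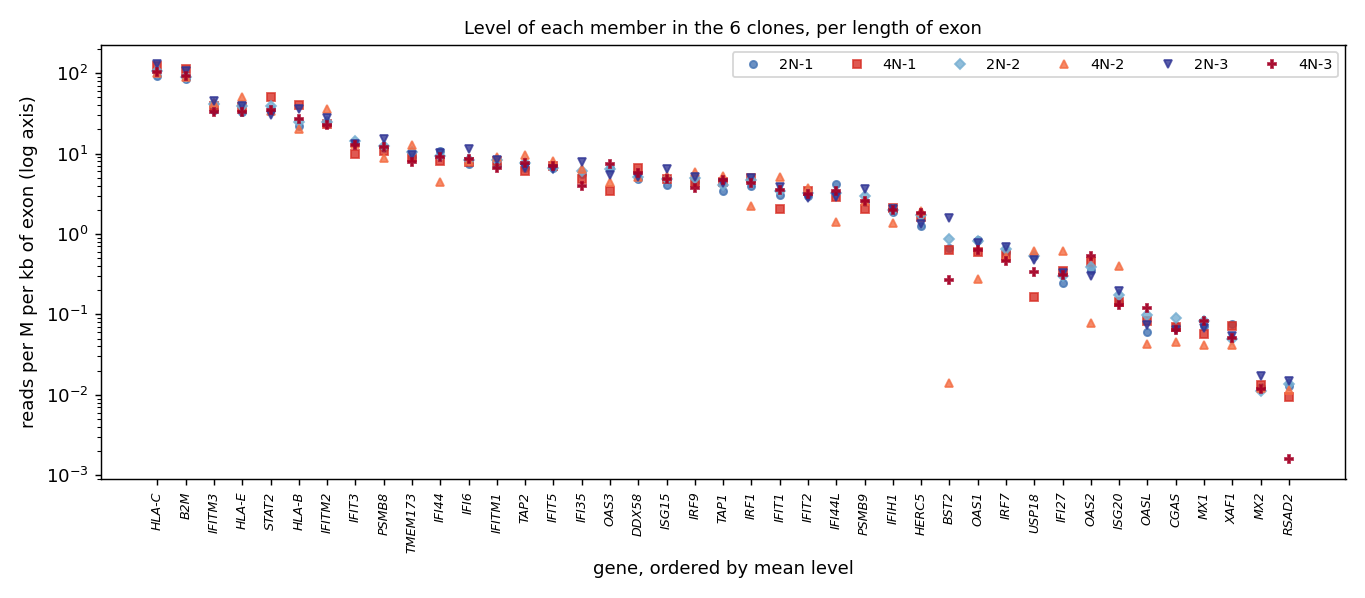
Mean level of the 40 members and CGAS in each of the 6 clones, as reads per M per kilobase of exon on a log axis, with genes ordered by their mean over clones. HLA-C and B2M lead at 108 and 95.5, and the point of 4N-2 lies far below the others for BST2 and OAS2.

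Among the DNA and RNA sensors, no member moved in more than 1 pair. CGAS had 221 reads in all, 4 to 24 in a library. It held 13, 9 and 14 reads in the libraries A, B and C from 2N-1, 13, 15 and 11 in 4N-1, 20, 24 and 13 in 2N-2, 8, 8 and 7 in 4N-2, 11, 11 and 10 in 2N-3 and 4, 11 and 19 in 4N-3. The libraries of 4N-2 were all below those of 2N-2, and the other pairs overlapped. The change in the second pair was -0.96 ± 0.37 SE, adjusted p = 0.0439, and leaving out 1 library at a time ended the call for 10 of 18 libraries, those of 4N-2 and 4N-1 and A and B of 2N-2 among them, with an adjusted p of up to 0.143. In pairs 1 and 3 the changes were -0.01 ± 0.36 SE, adjusted p = 0.992 and -0.14 ± 0.38 SE, adjusted p = 0.852.

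STING itself (TMEM173, chr5:139475534-139482935 in GRCh38) was at 4.72, 4.61 and 4.86 RPKM in 2N-1 and 4.88, 4.6 and 4.5 in 4N-1, at 5.64, 6.0 and 4.87 in 2N-2 and 6.68, 6.46 and 6.77 in 4N-2, and at 5.7, 4.79 and 4.52 in 2N-3 and 3.85, 3.67 and 4.87 in 4N-3. The libraries of 4N-2 were all higher than those of 2N-2, and those of the other pairs overlapped. None of the 3 changes passed: -0.02 ± 0.10 SE, adjusted p = 0.924, 0.25 ± 0.10 SE, adjusted p = 0.0578 and -0.25 ± 0.10 SE, adjusted p = 0.187. On the recovered reads pair 2 passed (0.27 ± 0.11 SE, adjusted p = 0.0476), and without libraries 2N-3 A and 4N-3 C the changes in pairs 2 and 3 passed with opposite signs (0.25, adjusted p = 0.00263, and -0.27, adjusted p = 0.0238). The 6 clones differed (adjusted p = 0.00153), and so did the pairs (span 0.51, adjusted p = 0.0294). Where CGAS was lowest, in 4N-2, STING was highest.

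Of the RNA sensors, DDX58 rose in pair 1, from 21.1 ± 1.36 to 29.2 ± 1.66 reads per M (SD, n = 3), a change of 0.46 ± 0.09 SE, adjusted p = 0.00142, and did not pass in pairs 2 and 3 (-0.01 and 0.14). IFIH1 fell in pair 2, from 10.2 ± 0.609 to 7.1 ± 0.0787 reads per M (n = 3), a change of -0.53 ± 0.14 SE, adjusted p = 0.00611. The median change of the 22 genes within 5 Mb of IFIH1 was -0.290 in that pair, so the region around it was lower as well. The pairs differed for both sensors (DDX58: span 0.47, adjusted p = 0.0177; IFIH1: span 0.68, adjusted p = 0.0282).

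**Figure D2:**
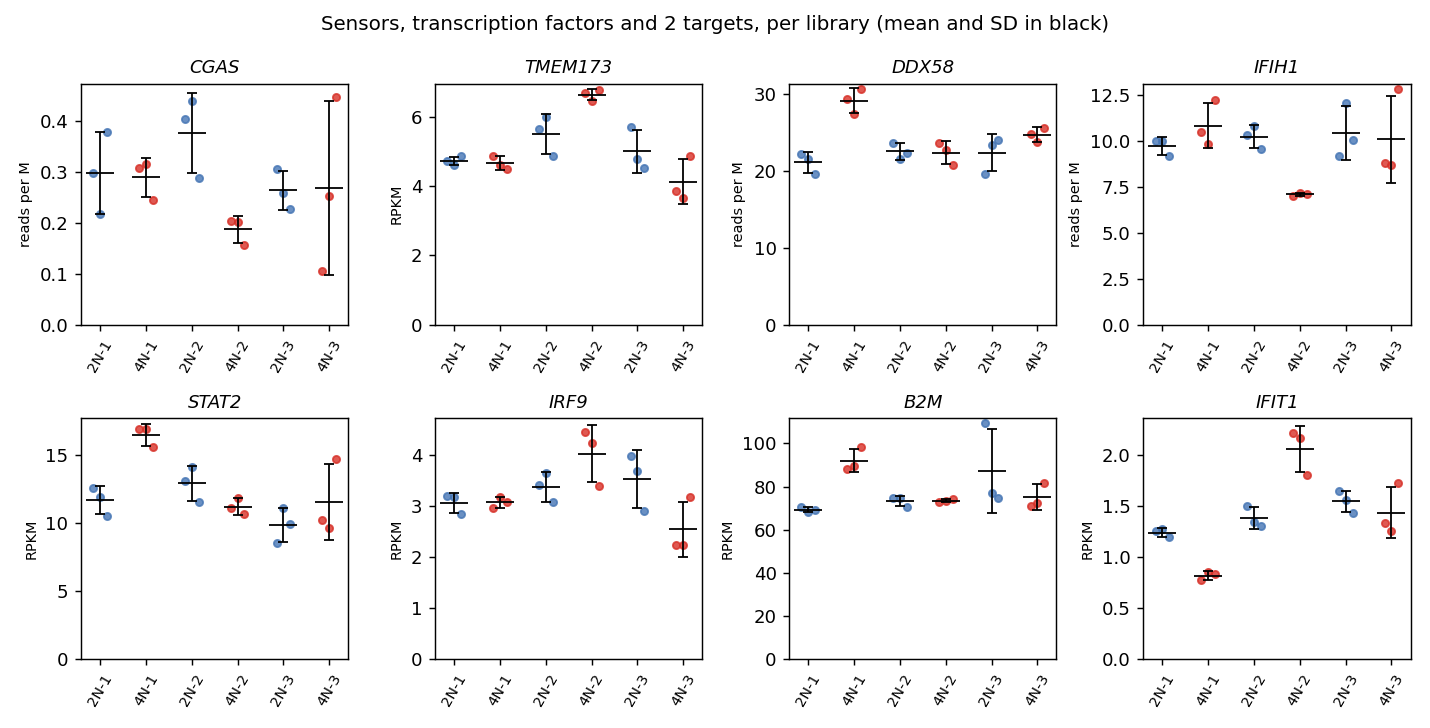
Level of CGAS, TMEM173, DDX58, IFIH1, STAT2, IRF9, B2M and IFIT1 in each library, in RPKM or reads per M, with the mean and SD of 3 libraries per clone in black and diploid clones in blue, tetraploid in red. CGAS and IFIH1 are lowest and TMEM173 highest in 4N-2, and DDX58 and STAT2 are highest in 4N-1.

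Among the transcription factors, IRF1 changed most, and in opposite directions. IRF1, a factor that interferon gamma induces and that acts on MHC class I genes (chr5:132481609-132490798), was at 3.37, 3.28 and 3.43 RPKM in 2N-1 and 4.18, 4.22 and 4.11 in 4N-1. It was at 3.94, 4.19 and 3.68 in 2N-2 and 1.92, 1.83 and 1.88 in 4N-2, and at 4.75, 3.87 and 4.01 in 2N-3 and 3.59, 3.46 and 3.86 in 4N-3. All libraries of 4N-1 were above those of 2N-1, all of 4N-2 below those of 2N-2 and all of 4N-3 below those of 2N-3. IRF1 rose in pair 1 by 0.27 ± 0.07 SE, adjusted p = 0.0103, fell in pair 2 with -0.90 ± 0.07 SE, adjusted p = 1.12e-07, and was at -0.18 ± 0.07 SE, adjusted p = 0.164 in pair 3. C5orf56, a transcript on the other strand, overlaps IRF1 and had 12392 reads, and whether counting used the strand is not stated.

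STAT2, a transcription factor that interferon receptors activate (chr12:56341597-56360155), was at 12.6, 11.96 and 10.6 RPKM in 2N-1 and 16.9, 16.9 and 15.6 in 4N-1, at 13.1, 14.1 and 11.5 in 2N-2 and 11.1, 11.9 and 10.7 in 4N-2, and at 8.56, 11.1 and 9.92 in 2N-3 and 10.2, 9.62 and 14.7 in 4N-3. Only pair 1 had groups that did not overlap. STAT2 rose there by 0.48 ± 0.14 SE, adjusted p = 0.0227, a call that ended without B or C of 2N-1 or A or B of 4N-1 (adjusted p of 0.0539 to 0.103). IRF9, its DNA-binding partner (chr14:24161053-24166565), was at 3.19, 3.18 and 2.84 RPKM in 2N-1, 2.97, 3.18 and 3.09 in 4N-1, 3.43, 3.66 and 3.08 in 2N-2, 4.46, 4.24 and 3.4 in 4N-2, 3.99, 3.7 and 2.91 in 2N-3 and 2.24, 2.23 and 3.17 in 4N-3. Every pair overlapped, and no change passed: 0.00, 0.22 and -0.41 ± 0.13 SE, adjusted p = 0.103. Without C of 4N-3 the change in pair 3 passed (-0.55, adjusted p = 0.0133), as it did without C of 2N-3 (-0.53, adjusted p = 0.0336). AL136295.5 overlaps IRF9 on its own strand and had 30716 reads, against 14033 for IRF9, so reads may be shared between them. IRF7, the factor that amplifies interferon production, had 28 to 108 reads in a library and no change that passed (-0.13, -0.36 and -0.59), though without C of 4N-3 pair 3 did (-0.96, adjusted p = 0.0209).

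Of 11 effectors against viral RNA in a fit, pair 1 had 0 that rose and 4 that fell, pair 2 had 3 and 5, and pair 3 had 1 and 0. Over all genes the shares that rose and fell were 10.6% and 10.3%, 21.5% and 16%, and 1.99% and 1.41% on RPKM, and 10% and 9.04%, 20.4% and 21.4%, and 3.36% and 2.95% on reads. OAS1, OAS2 and OAS3 are neighbours on chromosome 12 that make the 2-5A which activates RNase L. For OAS2 (chr12:112978395-113011723) the libraries held 2.35, 2.22 and 2.22 reads per M in 2N-1 and 3.04, 2.71 and 2.79 in 4N-1. In the second pair they held 2.78, 2.63 and 1.88 in 2N-2 and 0.786, 0.376 and 0.314 in 4N-2, and in pair 3 2.22, 1.66 and 1.73 in 2N-3 and 2.69, 3.03 and 4.2 in 4N-3. OAS2 was thus lowest in 4N-2 and highest in 4N-3, and no pair overlapped. It fell in pair 2 (-2.39 ± 0.29 SE, adjusted p = 3.16e-06), rose in pair 3 (0.82 ± 0.21 SE, adjusted p = 0.026) and was at 0.32 ± 0.21 SE, adjusted p = 0.317 in pair 1. The call in pair 3 ended without B or C of 2N-3 or B or C of 4N-3 (adjusted p of 0.0524 to 0.073).

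OAS1 (chr12:112906777-112933222) was lower in 4N-2 than anywhere else. It stood at 4.16, 4.22 and 4.2 reads per M in 2N-1 and 2.73, 2.9 and 3.14 in 4N-1, at 3.91, 4.64 and 3.62 in 2N-2 and 1.47, 1.53 and 1.08 in 4N-2, and at 3.21, 4.4 and 3.96 in 2N-3 and 2.85, 2.75 and 3.69 in 4N-3. The first 2 pairs did not overlap. OAS1 fell in pair 2 (-1.59 ± 0.17 SE, adjusted p = 1.01e-06) and also in pair 1 (-0.52 ± 0.15 SE, adjusted p = 0.0239), the latter lost without any 1 library of 2N-1 or without A or B of 4N-1 (adjusted p of 0.0567 to 0.0911). In pair 3 the change was -0.32 ± 0.16 SE, adjusted p = 0.238.

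OAS3 (chr12:112938352-112973249), the longest of the 3 enzymes and far above the other two per kilobase of exon (5.64 against 0.656 for OAS1 and 0.351 for OAS2), followed another order. Its RPKM was 1.44, 1.55 and 1.75 in 2N-1 and 0.79, 0.813 and 0.792 in 4N-1, 1.53, 1.45 and 1.63 in 2N-2 and 1.02, 0.958 and 1.17 in 4N-2, and 0.831, 1.42 and 1.57 in 2N-3 and 2.01, 1.99 and 1.3 in 4N-3. It was lowest in 4N-1, and only pair 3 overlapped. OAS3 fell in pair 1 (-0.68 ± 0.15 SE, adjusted p = 0.00452) and also in pair 2 (-0.40 ± 0.15 SE, adjusted p = 0.0448), and it was at 0.36 ± 0.15 SE, adjusted p = 0.2 in pair 3. The fall in pair 2 sat at the threshold: leaving out any 1 of the 12 libraries of pairs 1 and 2 ended it (adjusted p of 0.0505 to 0.13), as did testing genes with no minimum (0.0797) and the replicate letter as a block (0.0598). Without C of 4N-3 the rise in pair 3 passed (0.52, adjusted p = 0.038). The 58 genes within 5 Mb of the 3 had median changes of 0.033, 0.093 and 0.136 in the 3 pairs. OASL, a relative that acts with RIG-I, had 3 to 29 reads in a library and fell in pair 2 (-1.16 ± 0.42 SE, adjusted p = 0.0335), a call lost without A or B of 2N-2 or B or C of 4N-2 (up to 0.176).

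The IFIT genes, whose proteins bind viral RNA and block its translation, lie together on chromosome 10 and did not move together. IFIT1 (chr10:89392546-89406486) was at 1.26, 1.28 and 1.19 RPKM in 2N-1 and 0.775, 0.853 and 0.836 in 4N-1, at 1.51, 1.35 and 1.3 in 2N-2 and 2.21, 2.17 and 1.81 in 4N-2, and at 1.65, 1.57 and 1.44 in 2N-3 and 1.33, 1.25 and 1.73 in 4N-3. It was lowest in 4N-1 and highest in 4N-2, and only pair 3 overlapped. IFIT1 fell in pair 1 (-0.40 ± 0.09 SE, adjusted p = 0.00435) and rose in pair 2 (0.44 ± 0.09 SE, adjusted p = 0.0009), with -0.09 in pair 3 (adjusted p = 0.536). IFIT3, which stabilises IFIT1, fell in pair 1 as well (-0.36 ± 0.05 SE, adjusted p = 0.000332), from 2.72 ± 0.0551 to 2.01 ± 0.113 RPKM (n = 3), but was at -0.09 ± 0.05 SE, adjusted p = 0.211 in pair 2. IFIT5 rose in pair 2 (0.28 ± 0.08 SE, adjusted p = 0.0105), a call lost without B of 2N-2 (0.0586) and with library medians set equal (0.23, adjusted p = 0.072), and IFIT2 passed in no pair (0.17, 0.18 and 0.11). IFIT1, IFIT2 and IFIT3 lie in the span of LIPA on the other strand (113423 reads), so without strand some of its reads could count for them.

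ISG20, an exonuclease of single-stranded RNA (chr15:88636153-88656483), stood out upward in 4N-2. Its libraries held 1.48, 0.94 and 0.704 reads per M in 2N-1, 0.973, 1.03 and 1.14 in 4N-1, 1.09, 1.31 and 1.48 in 2N-2, 3.42, 3.36 and 2.0 in 4N-2, 1.94, 1.1 and 1.25 in 2N-3 and 0.977, 1.08 and 0.869 in 4N-3. Every library of 4N-2 exceeded all 15 others, and those of 4N-3 were all below those of 2N-3. ISG20 rose in pair 2 (1.13 ± 0.24 SE, adjusted p = 0.00112) and was at 0.05 and -0.49 in pairs 1 and 3 (adjusted p = 0.938 and 0.319). MX1, the dynamin-like GTPase against influenza virus, had 13 to 48 reads in a library and fell in pair 2 (-0.93 ± 0.34 SE, adjusted p = 0.0335), a call lost without A or B of 2N-2 or any library of 4N-2 (up to 0.131). MX2, active against HIV-1, had 3 to 11 reads and no change that passed. RSAD2 (viperin) had 0 to 7 reads in a library: 8 in 2N-1, 6 in 4N-1, 10 in 2N-2, 7 in 4N-2, 9 in 2N-3 and 1 in 4N-3.

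Of the 6 membrane effectors, BST2 varied most of all 40 members. BST2 (tetherin), which holds budding virions at the cell surface (chr19:17402939-17405648), had 41, 38 and 14 reads in 2N-1 and 27, 34 and 35 in 4N-1. It had 45, 66 and 37 reads in 2N-2 and 0, 1 and 1 in 4N-2, and 90, 66 and 55 in 2N-3 and 8, 6 and 24 in 4N-3. In reads per M the means were 0.744 ± 0.316, 0.711 ± 0.07, 0.976 ± 0.203, 0.0158 ± 0.0138, 1.76 ± 0.647 and 0.304 ± 0.228 in the same order (SD, n = 3). BST2 was almost off in 4N-2, with 2 reads against 148 in 2N-2, and pairs 2 and 3 did not overlap. The level in 2N-2 was 61.2 times that in 4N-2 (95% interval 16.7 to 510, exact binomial), and that in 2N-3 was 5.61 times that in 4N-3 (3.96 to 8.15, from 211 and 38 reads). These intervals cover counting error only. BST2 fell in pair 2 (-5.27 ± 0.79 SE, adjusted p = 3.68e-05, a fitted value that depends on the small count added to 0 reads) and also in pair 3 (-2.65 ± 0.44 SE, adjusted p = 0.00073), and was at 0.01 ± 0.38 SE, adjusted p = 0.988 in pair 1. Both falls passed without any 1 library.

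IFI27, a protein of mitochondrial and nuclear membranes (chr14:94104836-94116698), moved the other way in pair 2. It was at 0.959, 1.2 and 0.92 reads per M in 2N-1, 1.64, 1.47 and 1.18 in 4N-1, 1.25, 1.37 and 1.15 in 2N-2, 2.46, 2.41 and 2.83 in 4N-2, 1.02, 1.64 and 1.44 in 2N-3 and 1.24, 1.51 and 1.06 in 4N-3. Only in pair 2 did the libraries not overlap, with 4N-2 the higher. IFI27 rose there (1.02 ± 0.18 SE, adjusted p = 0.000153) and did not pass in pairs 1 and 3 (0.46 and -0.10). IFITM2, which blocks viral fusion in endosomes, rose in pair 2 (0.51 ± 0.16 SE, adjusted p = 0.0174), from 4.99 ± 0.573 to 7.31 ± 0.632 RPKM (n = 3), and lost the call without A or C of 2N-2 or A of 4N-2 (0.0598 to 0.0702). IFITM1, IFITM3 and IFI6 did not pass in these fits, with changes from -0.34 to 0.14; IFITM1 passed in pair 1 in a fit of that pair alone (0.14, adjusted p = 0.0241). The 3 IFITM genes are close paralogs side by side, and the span of IFITM2 reaches over IFITM1, so their reads may be split between them. Library A of 2N-3 had the highest level of the 18 for IFI6, IFITM1 and IFITM3, whose exons are short.

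The ISG15 system conjugates a ubiquitin-like protein to newly made proteins. USP18, which removes ISG15 and shuts off the interferon receptor (chr22:18149899-18177397), was at 1.14, 1.16 and 1.14 reads per M in 2N-1 and 0.332, 0.336 and 0.379 in 4N-1. It was at 0.866, 1.17 and 1.32 in 2N-2 and 1.22, 1.15 and 1.55 in 4N-2, and at 1.11, 0.937 and 1.03 in 2N-3 and 1.08, 0.642 and 0.423 in 4N-3. All libraries of 4N-1 were below the other 15, and pairs 2 and 3 overlapped. USP18 fell in pair 1 (-1.69 ± 0.29 SE, adjusted p = 0.000438) and was at 0.24 ± 0.22 SE, adjusted p = 0.413 and -0.62 ± 0.26 SE, adjusted p = 0.174 in pairs 2 and 3. Without A of 4N-3 it passed in pair 3 (-0.95, adjusted p = 0.0432). HERC5, the ligase for ISG15, was higher in the tetraploid clone without overlap in all 3 pairs, from 6.02 ± 0.377 to 7.69 ± 0.626, from 8.1 ± 0.545 to 9.3 ± 0.676 and from 6.39 ± 0.672 to 8.62 ± 0.914 reads per M (n = 3). It rose in pairs 1 and 3 (0.35 ± 0.12 SE, adjusted p = 0.0413 and 0.43 ± 0.12 SE, adjusted p = 0.0302) and was at 0.20 ± 0.11 SE, adjusted p = 0.146 in pair 2. Both calls were marginal: 9 of 18 libraries ended the first when left out (up to 0.149), and B of 2N-3 or A or B of 4N-3 ended the second (up to 0.156). ISG15 itself passed in no pair (0.24, 0.09 and -0.26), with 5.35 ± 2.78 RPKM in 2N-3, where A alone held 8.54; without that library its change in pair 1 passed (0.24, adjusted p = 0.018).

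IFI44L and IFI44, neighbours on chromosome 1 whose proteins limit viral replication and the interferon response, fell together in pairs 1 and 2. IFI44L (chr1:78619922-78646145) was at 1.68, 1.73 and 1.53 RPKM in 2N-1 and 1.11, 1.11 and 1.14 in 4N-1, at 1.29, 1.16 and 1.38 in 2N-2 and 0.555, 0.593 and 0.481 in 4N-2, and at 0.813, 1.24 and 1.32 in 2N-3 and 1.32, 1.37 and 1.36 in 4N-3. IFI44 (chr1:78649796-78664078) was at 1.54, 1.62 and 1.45 RPKM in 2N-1 and 1.17, 1.23 and 1.1 in 4N-1, at 1.33, 1.36 and 1.32 in 2N-2 and 0.628, 0.666 and 0.611 in 4N-2, and at 1.4, 1.58 and 1.44 in 2N-3 and 1.24, 1.15 and 1.54 in 4N-3. For both genes 4N-2 was lowest, the first 2 pairs did not overlap, and in pair 3 IFI44L was a little higher in 4N-3 while IFI44 overlapped. The changes of IFI44L were -0.40 ± 0.10 SE, adjusted p = 0.00853, -0.77 ± 0.10 SE, adjusted p = 1.81e-05 and 0.20 ± 0.10 SE, adjusted p = 0.256. Those of IFI44 were -0.29 ± 0.07 SE, adjusted p = 0.00873, -0.70 ± 0.07 SE, adjusted p = 2.06e-06 and -0.13 ± 0.07 SE, adjusted p = 0.297. Without C of 4N-3 IFI44 passed in pair 3 too (-0.22, adjusted p = 0.0357). On the recovered reads, with no constant of 0.5 RPKM, the falls in pair 2 were -1.24 and -1.08. Chromosome 1 as a whole had a median change of -0.297 in pair 2, and the 21 genes within 5 Mb of the 2 had -0.124.

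IFI35, a partner of NMI, fell in pair 3 (-0.69 ± 0.15 SE, adjusted p = 0.0202), from 2.0 ± 0.788 to 1.01 ± 0.164 RPKM (n = 3). The call ended without A or B of 4N-3 (up to 0.0987) and in a fit of the 6 libraries of pair 3 alone (0.8). XAF1, which promotes cell death, had 6 to 26 reads in a library and no change that passed (-0.10, -0.31 and 0.05).

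**Figure D3:**
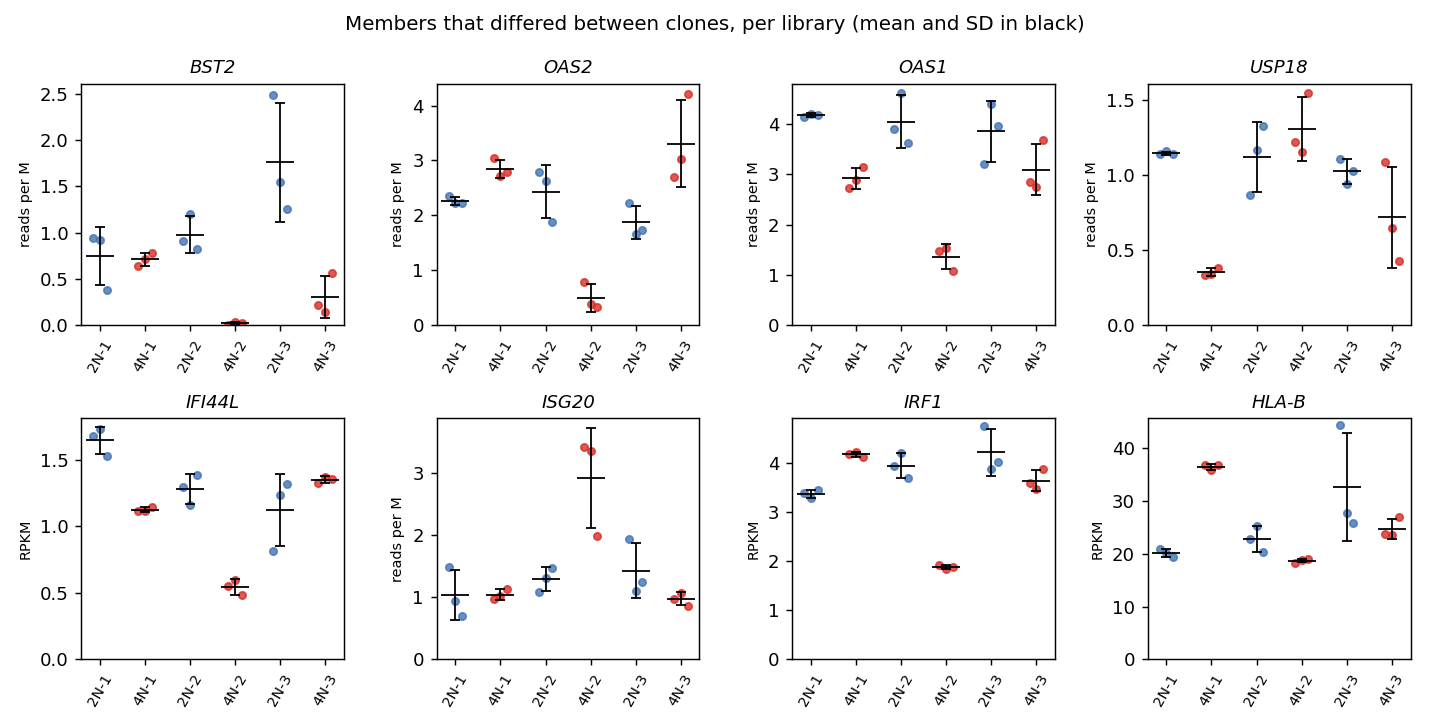
Level of BST2, OAS2, OAS1, USP18, IFI44L, ISG20, IRF1 and HLA-B in each library, in reads per M or RPKM from 0, with the mean and SD of 3 libraries per clone in black, diploid clones in blue and tetraploid in red. BST2, OAS2, OAS1, IFI44L and IRF1 are lowest in 4N-2, USP18 in 4N-1, and ISG20 is highest in 4N-2.

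The MHC class I molecules rose in part in pair 1. HLA-B is a classical heavy chain, with an annotated span (chr6:31269491-31357188) longer than the length behind its RPKM. HLA-B was at 20.9, 20.1 and 19.5 RPKM in 2N-1 and 36.8, 35.8 and 36.8 in 4N-1. It was at 22.7, 25.2 and 20.3 in 2N-2 and 18.3, 18.8 and 18.98 in 4N-2, and at 44.3, 27.7 and 25.7 in 2N-3 and 23.7, 23.6 and 26.9 in 4N-3. All libraries of 4N-1 were above those of 2N-1, those of 4N-2 were below those of 2N-2, and in pair 3 A of 2N-3 was the highest of the 18. HLA-B rose in pair 1 (0.84 ± 0.15 SE, adjusted p = 0.00122), and was at -0.27 ± 0.15 SE, adjusted p = 0.176 and -0.35 ± 0.15 SE, adjusted p = 0.222 in pairs 2 and 3. Without A of 2N-3 the fall in pair 2 passed as well (-0.27, adjusted p = 0.00512).

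B2M, the light chain shared by all class I molecules (chr15:44711487-44718877), was at 70.6, 68.4 and 69.2 RPKM in 2N-1, 88.1, 89.7 and 98.2 in 4N-1, 74.8, 74.8 and 70.5 in 2N-2, 72.97, 73.2 and 74.4 in 4N-2, 109.5, 77.3 and 74.7 in 2N-3 and 71.2, 72.6 and 81.9 in 4N-3. Only pair 1 did not overlap. B2M rose there (0.40 ± 0.12 SE, adjusted p = 0.0241), a call that ended when any library of that pair was left out (0.0505 to 0.0922). HLA-C, another classical chain, was at 67.6 ± 2.28 RPKM in 2N-1 and 89.8 ± 2.02 in 4N-1 (n = 3), with 0.41 ± 0.15 SE, adjusted p = 0.0713; on the recovered reads the adjusted p was 0.0497, and without A of 2N-3, where HLA-C was at 129.7 RPKM, it was 0.00034. HLA-E, the ligand of an inhibitory receptor on natural killer cells, rose in pair 2 (0.37 ± 0.11 SE, adjusted p = 0.0129), from 24.3 ± 1.79 to 31.4 ± 0.462 RPKM, a call lost without C of 2N-2 (0.0578), and passed in pair 1 without A of 2N-3 (0.21, adjusted p = 0.025). HLA-B and HLA-C are close paralogs, so reads may be shared between them. The annotated span of HLA-B covers HLA-C, but it is not the length behind the deposited values. HLA-B had 66694 reads over all libraries, too few for its RPKM at that span.

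Peptide supply split. TAP1 and TAP2 form the transporter that carries peptides into the endoplasmic reticulum, and PSMB8 and PSMB9 are immunoproteasome subunits; the 4 genes lie side by side on chromosome 6. TAP1 rose in pairs 1 and 2 (0.28 ± 0.08 SE, adjusted p = 0.0262 and 0.29 ± 0.08 SE, adjusted p = 0.0128), from 1.9 ± 0.14 to 2.42 ± 0.116 and from 2.25 ± 0.133 to 2.87 ± 0.294 RPKM (n = 3). The first call ended without B or C of 2N-1 or A or C of 4N-1 (up to 0.103), the second without C of 2N-2 or C of 4N-2 (up to 0.0673). TAP2 rose in pair 2 (0.30 ± 0.09 SE, adjusted p = 0.0122), a call lost without C of 4N-2 (0.0628), and passed in pair 3 without C of 4N-3 (0.27, adjusted p = 0.0463). PSMB8 (chr6:32840717-32844703) was at 9.03, 8.93 and 8.24 RPKM in 2N-1, 7.79, 7.97 and 8.19 in 4N-1, 9.27, 9.68 and 9.0 in 2N-2, 5.96, 6.87 and 7.07 in 4N-2, 16.2, 9.35 and 8.87 in 2N-3 and 8.73, 9.13 and 9.16 in 4N-3. PSMB9 (chr6:32844136-32859585) was at 7.92, 7.76 and 7.55 reads per M in 2N-1, 6.93, 5.92 and 6.18 in 4N-1, 8.96, 9.27 and 8.79 in 2N-2, 8.06, 8.41 and 7.45 in 4N-2, 14.8, 10.4 and 8.45 in 2N-3 and 7.84, 7.8 and 8.01 in 4N-3. In each pair the tetraploid libraries of PSMB9 were all below the diploid ones, and so were those of PSMB8 in pairs 1 and 2, with A of 2N-3 highest for both. PSMB8 fell in pair 2 (-0.46 ± 0.16 SE, adjusted p = 0.0293), a call lost without any 1 library of 2N-2 or A or B of 4N-2 (0.0539 to 0.109) or with no minimum (0.0511). PSMB9 passed in no pair: -0.29 ± 0.15 SE, adjusted p = 0.199, -0.18 ± 0.14 SE, adjusted p = 0.342 and -0.45 ± 0.14 SE, adjusted p = 0.0723. Without A of 2N-3 PSMB9 passed in pair 1 (-0.30, adjusted p = 0.0175), and without C of 2N-3 in pair 3 (-0.64, adjusted p = 0.0046). PSMB9 overlaps PSMB8 and TAP1 on the other strand, and TAP2 shares its span with AL669918.1 on its own strand (37359 reads).

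**Figure D4:**
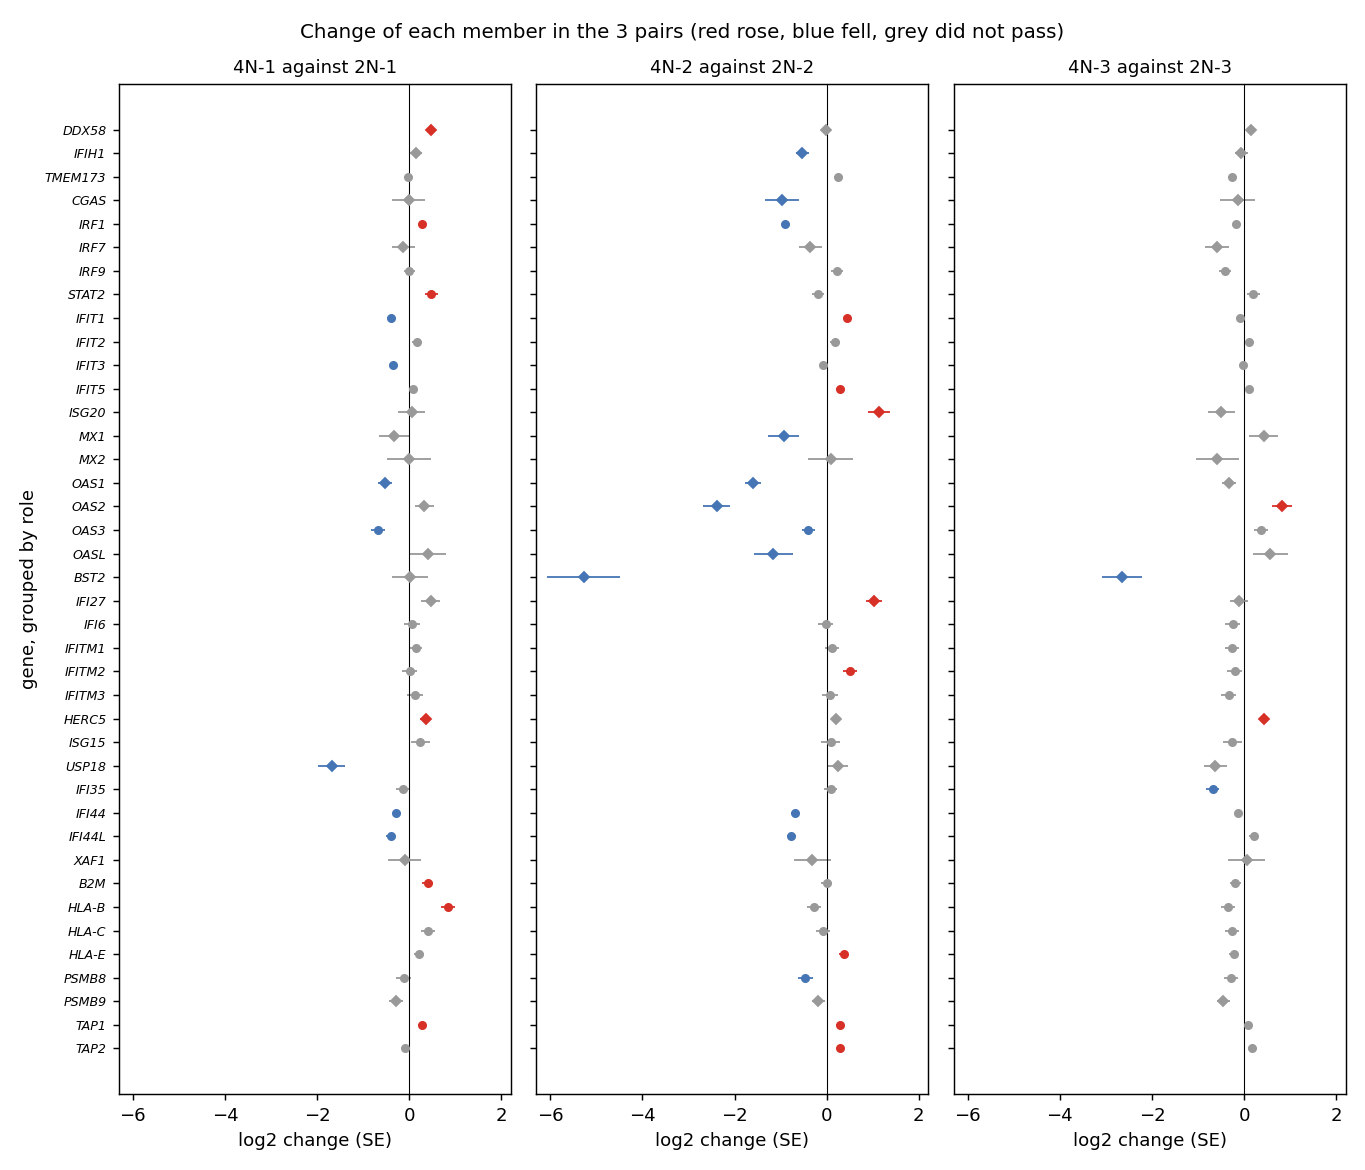
Log2 change of the tetraploid against the diploid clone with its SE for 39 members and CGAS in the 3 pairs, from log2(RPKM + 0.5) (circles) or recovered reads (diamonds), red where a gene rose and blue where it fell at an adjusted p below 0.05. Points spread to both sides in pairs 1 and 2, and BST2 lies at -5.27 in pair 2 and -2.65 in pair 3.

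Counted over the list, calls went both ways in pairs 1 and 2 on both scales. Of the 24 members tested on RPKM, 5 went up and 5 down in pair 1, where 10.6% of all genes tested rose and 10.3% fell. In pair 2, 6 went up and 5 down, with a background of 21.5% and 16%. In pair 3, 0 rose and 1 fell, with 1.99% and 1.41%. There limma gave 6 members an unadjusted p below 0.05, and the fit on reads 14. The share of all genes at that level is not reported here, so these counts are no result about the members. At an adjusted p below 0.05, the share that changed was 41.7%, 45.8% and 4.17% of the members against 20.9%, 37.5% and 3.4% of all genes. In pairs 2 and 3 the share lay nearer the background than in pair 1. Member medians were 0.066, 0.076 and -0.200 against -0.006, 0.036 and -0.019 for all genes. With 1 library left out at a time, 2 to 8 of the 24 rose in pair 1, with 2 without B or C of 2N-1 or A of 4N-1 and 8 without A of 2N-3. In pair 2, 3 rose without C of 2N-2, and 3 fell without any 1 library of 2N-2 or without A or B of 4N-2. In pair 3, 0 fell without A or B of 4N-3, 2 fell without C of 2N-3, and 2 rose and 4 fell without C of 4N-3. None of the 24 changed 2-fold or more on this scale, where 0.649%, 2.46% and 0.144% of genes rose and 0.804%, 2.38% and 0.185% fell by that much in the 3 pairs.

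On the recovered reads, 39 members could be tested. In pair 1, 8 rose and 7 fell (background 10% and 9.04%). For pair 2 the counts were 9 and 11 (20.4% and 21.4%), and for pair 3 they were 2 and 2 (3.36% and 2.95%). In either direction the background was 19.1%, 41.8% and 6.3%. A 2-fold change was reached by USP18 downward in pair 1 (background 2.68%, and 2.29% upward) and BST2 downward in pair 3 (1.45%, and 1.07% upward). In pair 2 it was reached upward by ISG20 and IFI27 (6.87%) and downward by 7 members, BST2, OAS2, OAS1, IFI44L, OASL, IFI44 and IRF1 (8.13%). All libraries of the tetraploid clone were above those of the diploid clone for 13 of 40 members in pair 1, 11 in pair 2 and 3 in pair 3, against 26.4%, 29.8% and 10.3% of all genes. All were below for 10, 15 and 5 members, against 23.5%, 31% and 8.13%.

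Differences between clones were common among the members and among all genes. The F test over the 6 clones passed for 17 of 24 members on RPKM (background 51.2%) and 28 of 39 on reads (53.6%). The test that the 3 pair changes differ passed for 15 of 24 (39%) and 25 of 39 (41.4%). By span, BST2 (5.28), OAS2 (3.21), USP18 (1.93), OASL (1.73) and ISG20 (1.63) differed most between pairs. Over the 3 pairs, with 3 tetraploid against 3 diploid clones as replicates, no member rose or fell on either scale (background 0 in each case). In that comparison 0 of 24 members had an unadjusted p below 0.05 on RPKM and 1 of 39 on reads, OAS1 (-0.79 ± 0.30, SE, adjusted p = 0.992). The share of all genes at that unadjusted level is not reported here. BST2 had the largest value, -2.26 ± 0.96 (SE), with the libraries of 4N-1 and 2N-1 overlapping.

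**Figure D5:**
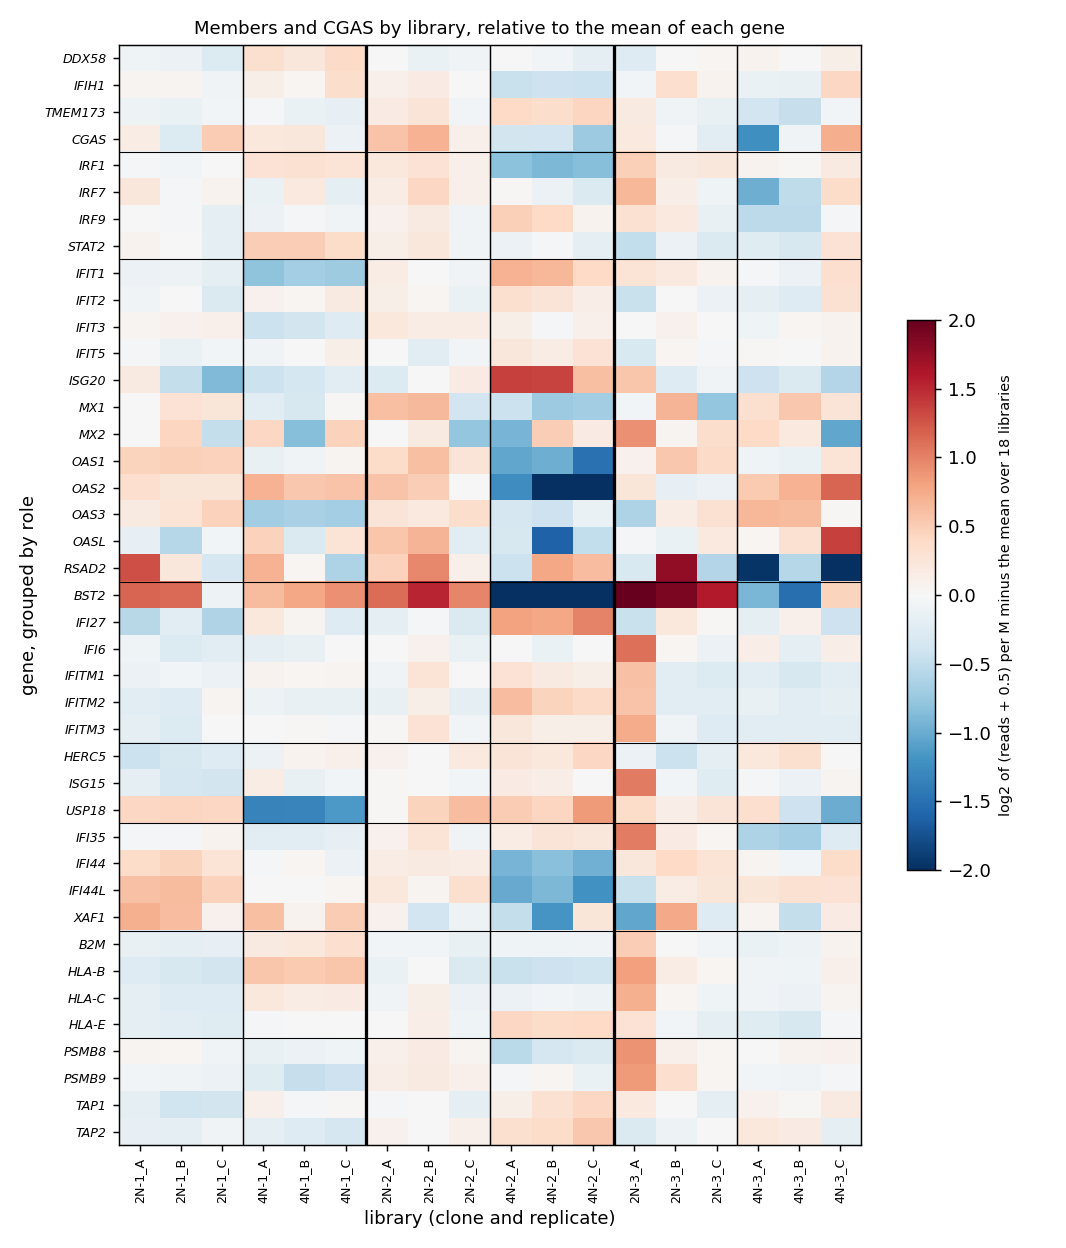
Deviation of each member and CGAS from its mean over 18 libraries, as log2 of reads per M after adding 0.5 reads, with genes in rows grouped by role and libraries in columns grouped by pair. The low OAS1, OAS2, BST2, IFI44, IFI44L and IRF1 and the high ISG20 and IFI27 of 4N-2, and the low USP18 of 4N-1, recur in all 3 libraries of the clone.

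Members with and without ISRE letters in the promoter window were set side by side. In pair 2, 6 of the 19 with a match rose and 6 fell (median 0.068), and the 11 tested without one held 0 that rose and 3 that fell (median -0.191). In pair 1, 3 rose and 5 fell among the 19 (median 0.056), and 4 rose and 1 fell among the 11 (median 0.005). In pair 3 the counts were 1 and 1 of 19 and 0 and 1 of 11. Beside these stand the shares of all genes that rose and fell, 20.4% and 21.4% in pair 2 on reads and 21.5% and 16% on RPKM. In pair 1 they were 10% and 9.04% on reads and 10.6% and 10.3% on RPKM. In pair 3 they were 3.36% and 2.95%, and 1.99% and 1.41%. Each member is taken from its own fit, so the medians mix the 2 scales. OAS1, IFI35, DDX58 and XAF1, counted as without a match, hold GAAA then 1 base then GAAA, as does RSAD2, which was in no fit. These counts carry no test.

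The rest of the pathway was read on the recovered reads, from lists that share some genes with the members. On this scale 10% of all genes rose and 9.04% fell in pair 1, 20.4% and 21.4% in pair 2, and 3.36% and 2.95% in pair 3, and each list's counts stand against these shares. Of 8 sensors tested, 6 fell in pair 2 (background 21.4%): AIM2, DHX58 (LGP2), TLR3 and IFI16 beside CGAS and IFIH1. AIM2, a DNA sensor of the inflammasome, had 42 reads in 2N-2 and 8 in 4N-2, a level 4.34 times higher in 2N-2 (95% interval 2.01 to 10.7, counting error only). DHX58 fell by 1.38 ± 0.16 SE, adjusted p = 1.75e-06 on the log2 scale, TLR3 by 0.74 ± 0.15 SE, adjusted p = 0.000894 and IFI16 by 0.41 ± 0.09 SE, adjusted p = 0.00115. AIM2 and IFI16 lie on chromosome 1, which had a median change of -0.297 in pair 2, and the region of IFIH1 was at -0.290. The part of these offsets in the falls was not tested. In pair 1, IFI16 fell (-0.46) and DDX58 rose, and in pair 3 no sensor passed. Median changes of the 8 were 0.020, -0.632 and -0.036.

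Downstream of the sensors, 10 adaptors, kinases and factors were tested, IRF1 and IRF7 among them. In pair 2, IRF2, a counterpart of IRF1 at the same sites, fell (-0.97 ± 0.08 SE, adjusted p = 6.72e-08), as did TBK1, the kinase of STING (-0.34 ± 0.09 SE, adjusted p = 0.00625), and NFKB1 (-0.29, lost without 4 of the libraries, up to 0.0732), while RELA (0.38) and, on this scale, STING rose, and IRF1 was the last of the 4 that fell. In pair 1 IRF1 rose, and in pair 3 TRAF3 rose at an adjusted p of 0.0493, a call that 15 of 18 libraries ended when left out (up to 0.234). Among 9 brakes on nucleic acid sensing, TREX1, the exonuclease of cytosolic DNA, and RNASEH2A, a subunit of RNase H2, went opposite ways in pairs 1 and 2. TREX1 fell in pair 1 (-0.71 ± 0.22 SE, adjusted p = 0.0287, up to 0.111 without a library) and rose in pair 2 (0.77 ± 0.19 SE, adjusted p = 0.00331). RNASEH2A fell in pair 1 (-1.23 ± 0.24 SE, adjusted p = 0.00128) and rose in pair 2 (0.64 ± 0.22 SE, adjusted p = 0.0255, up to 0.113 without a library). SAMHD1, a dNTP hydrolase, rose in pair 2 (0.65 ± 0.09 SE, adjusted p = 1.84e-05), as did BANF1 (0.48, lost without any 1 library of that pair, up to 0.0965), while RNASEH2B fell (-0.37). In pair 3 none of the 9 passed.

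The single interferon ligand with more than 2 reads, IFNE, fell in pair 2, from 9.0 ± 0.497 to 2.96 ± 0.793 reads per M (n = 3), a change of -1.65 ± 0.19 SE, adjusted p = 2.52e-06. Of 13 receptor and JAK-STAT genes, IFNLR1, a chain of the interferon lambda receptor on chromosome 1, fell in all 3 pairs: -0.71 ± 0.14 SE, adjusted p = 0.00121, -1.08 ± 0.13 SE, adjusted p = 4.12e-06 and -0.66 ± 0.14 SE, adjusted p = 0.00603. Its reads per M were 5.63 ± 0.178 and 3.46 ± 0.352, 6.81 ± 0.36 and 3.21 ± 0.263, and 5.41 ± 1.01 and 3.42 ± 0.364 in the diploid and tetraploid clones of the 3 pairs. Over the 3 pairs, with clones as replicates, IFNLR1 did not pass (-0.83 ± 0.19 SE, adjusted p = 0.824). The median change of chromosome 1 was -0.01, -0.297 and 0.025 in the 3 pairs. IFNGR1, a chain of the interferon gamma receptor, rose in pair 2 (0.64 ± 0.08 SE, adjusted p = 3.97e-06), and IL10RB, the partner of IFNLR1, rose in pair 1 (0.43) and fell in pair 2 (-0.36). In all, pair 1 had 4 that rose and 1 that fell (IFNGR1, IFNGR2, IL10RB and STAT2 upward), pair 2 had 4 and 3 (IFNGR1, IFNGR2, JAK2 and IFNAR2 upward, IFNLR1, IL10RB and TYK2 downward), and pair 3 had 0 and 1, against 19.1%, 41.8% and 6.3% of all genes called in either direction. Of these, IFNGR1 and IFNGR2 in pair 1 and JAK2 and TYK2 in pair 2 lost the call without some single libraries (up to 0.168). Among 8 brakes on interferon signalling, PIAS3 fell in pair 2 (-0.70 ± 0.11 SE, adjusted p = 6.14e-05), SOCS3 in pair 1 (-0.36, 0.0651 without 1 library) and SOCS1 in pair 3 (-1.31 ± 0.29 SE, adjusted p = 0.00891, 0.0727 without B of 4N-3), beside USP18 in pair 1, and PTPN11 rose in pair 2 (0.45, up to 0.0971 without a library).

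Among 45 other interferon-stimulated genes, 40 were tested, of which 10 rose and 2 fell in pair 1 (GBP5 and TRIM25), with 10 upward and 12 downward in pair 2 and 5 and 2 in pair 3. In either direction the background was 19.1%, 41.8% and 6.3% of all genes. The fall of TRIM25 (adjusted p = 0.0457) ended without any of 13 single libraries (up to 0.157). Those with the widest span were all low in 4N-2. GBP2, a GTPase that attacks the vacuoles of pathogens, was at 19.995 ± 2.79 reads per M in 2N-2 and 2.65 ± 0.528 in 4N-2 (-2.93 ± 0.23 SE, adjusted p = 1.76e-08). LGALS3BP, a secreted glycoprotein, fell from 97.7 ± 9.84 to 15.9 ± 1.1 (-2.62 ± 0.11 SE, adjusted p = 1.51e-11). GBP1 rose in pair 1 (0.67 ± 0.08 SE, adjusted p = 2.55e-05) and fell in pair 2 (-1.72 ± 0.10 SE, adjusted p = 3.96e-10), the same order of signs as IRF1. SAMD9, an inhibitor of poxviruses, fell in pair 2 (-1.93 ± 0.26 SE, adjusted p = 9.48e-06) and rose in pair 3 (0.73 ± 0.18 SE, adjusted p = 0.0215, up to 0.0923 without A or B of 4N-3), as OAS2 did. The others past the threshold in pair 3 were APOL1 (1.11), BATF2 (0.75), TRIM22 (0.55) and PARP10 (0.53) upward and TRIM21 (-0.37) and GBP1 (-0.36) downward, of which APOL1 alone kept the call without any 1 library. CXCL10 and CXCL11, chemokines of a strong interferon response, had 1 read each over all libraries.

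Among other MHC class I presentation genes, HLA-H and TAPBP rose in pair 1 (0.50 and 0.33), calls lost without any of 5 and of 6 single libraries of that pair (up to 0.0786 and 0.0735). In pair 2, 4 fell: NLRC5, the transactivator of class I genes (-1.24 ± 0.10 SE, adjusted p = 3.59e-08), HLA-F (-0.92 ± 0.21 SE, adjusted p = 0.00184), TAPBPL (-0.69 ± 0.17 SE, adjusted p = 0.00332) and CANX (-0.30, up to 0.11 without a library). HLA-F also fell in pair 3 (-1.01 ± 0.20 SE, adjusted p = 0.00427). Beside the fall of NLRC5 and IRF1 in pair 2, HLA-B was at -0.27, HLA-C at -0.07 and B2M at 0.00 there. TAP1, TAP2 and HLA-E rose, PSMB8 fell and PSMB9 did not pass. Of the 10 MHC class II genes, with 0 to 7033 reads each, 6 were tested and 5 rose in pair 2 (background 20.4%): CIITA, their transactivator (1.36 ± 0.11 SE, adjusted p = 2.88e-08), HLA-DPA1 (2.43 ± 0.50 SE, adjusted p = 0.000803), HLA-DRA (1.89 ± 0.43 SE, adjusted p = 0.0017), HLA-DMB (1.72 ± 0.28 SE, adjusted p = 8.28e-05) and CD74 (1.30). Over all 18 libraries these 5 had 4128, 301, 105, 187 and 235 reads. The gene of the list with the most reads, 7033, was not among the 5 that rose. In pair 1 CIITA and HLA-DMB fell (-1.27 and -1.03, the latter up to 0.155 without a library) and HLA-DPA1 rose (2.84). Immune markers moved with 4N-2 as given above, chiefly CD68, with CD3E and NKG7 at 0 and 102 reads of PTPRC over all libraries.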

How the data were processed

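Poly(A) RNA of 18 libraries (6 clones, 3 each) was sequenced with a stranded kit, per the labels' protocols. The deposited RPKM values were made by the authors with CASAVA 1.8.2, TopHat2, edgeR and hg19, per the submitters' processing notes. The annotation release, and whether strand was used in counting, are not given in the sources used here. For 87.2% of the 24742 genes over 50 reads, the implied length was within 0.5% of the genomic span in GENCODE 29 (GRCh38), and coordinates are those of GRCh38. Whole read counts were recovered from the deposited values: 99.9904% of values fell within 0.01 reads of a whole number, with divisors of 36.1 to 54.8 M.

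The members and all gene lists were chosen with earlier results of these data known. Genes with at least 1 RPKM in 3 libraries were tested as log2(RPKM + 0.5) with limma 3.58.1 (R 4.3.3) on 6 clone means, with Benjamini-Hochberg adjustment over all genes tested. Members below that minimum were tested with limma-voom on recovered reads (at least 10 in 3 libraries). Each pair was tested, then differences among clones and between pairs, then ploidy with clones as replicates. All members and CGAS are named; library values are given for up to 15 members of widest span among clones and for CGAS, TMEM173, STAT2, IRF9 and B2M. From other lists up to 4 genes of widest span are named, and all where a count is 5 or fewer. TAP1, TAP2 and other genes with values beyond that rule were named after their values were seen. Results for some genes of the other lists are not reported here. P-values of the pairs and of the tests among clones measure the spread between libraries of the same clone, estimated over all 18 libraries. A library of 1 pair can therefore move calls in another pair. P-values for ploidy rest on the spread of the 6 clone means, with pair as a block. The fits were tested on simulated data. Alternatives were other pseudocounts, no minimum, equal library medians, reads, a replicate block, single pairs, each library left out and, chosen after seeing the data, libraries 2N-3 A and 4N-3 C left out together. Single calls of members below the minimum and of CGAS were compared only with the fits that left out libraries.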

Additional observations from a re-analysis of the deposited data

Results flagged for a closer look

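In 10 members the change from diploid to tetraploid clone differed between the 3 pairs by 2-fold or more, with a test of the difference itself (limma, adjusted over all genes tested). The span is the highest minus the lowest of the 3 log2 changes. For BST2 it was 5.28 (adjusted p = 0.000332), for OAS2 3.21 (2.56e-06), for USP18 1.93 (0.00137), for OASL 1.73 (0.0382) and for ISG20 1.63 (0.00814). For OAS1 it was 1.27 (0.000549), for HLA-B 1.19 (0.000727), for IRF1 1.17 (1.91e-06), for IFI27 1.13 (0.0104) and for OAS3 1.04 (0.00307). Of these, OAS2 fell in pair 2 and rose in pair 3, and IRF1 rose in pair 1 and fell in pair 2. The spans of OAS3, IRF1 and HLA-B, from the 24 members tested there, are on the log2(RPKM + 0.5) scale. The others, from the 15 members below the minimum, are on recovered reads.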

How the results depend on the processing

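Of 120 changes in the pairs, those of 39 members and CGAS, 38 passed the threshold, CGAS in pair 2 among them. Of these, 20 kept it under every alternative run for them and 18 lost it without at least 1 library. Another 21 passed under at least 1 alternative and 0 reversed. For the 15 members below the minimum and CGAS, the only alternatives run were those that left out libraries. Counts over the 24 members moved by more than 1.5 times as follows. On recovered reads, where 39 members were tested, 8 rose in pair 1, 11 fell in pair 2, 2 each rose and fell in pair 3, 28 differed among clones and 25 between pairs. With no minimum, 1 rose and 2 fell in pair 3. In fits of single pairs, 8 rose in pair 1 and 0 fell in pair 3. Without libraries 2N-3 A and 4N-3 C together, 8 rose in pair 1, pair 3 had 2 that rose and 4 that fell, and among the 15 members below the minimum 4 fell in pair 3. The cause was not tested. With 1 library left out at a time, the counts that rose and fell were 2 to 8 and 5 to 5 in pair 1, 3 to 7 and 3 to 6 in pair 2 and 0 to 2 and 0 to 4 in pair 3, while 13 to 22 differed among clones and 9 to 17 between pairs; over the 3 pairs 0 rose and 0 fell each time. For the 15 members below the minimum these counts were 1 to 2 and 1 to 3 in pair 1, 2 to 2 and 4 to 6 in pair 2, and 0 to 2 and 1 to 2 in pair 3.

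The replicate letters did not pair the samples: correlations of the deviations of same-lettered libraries were 0.12, 0.05 and 0.08 in pair 1, -0.02, 0.15 and 0.22 in pair 2, and 0.03, -0.12 and -0.09 in pair 3. With the letter as a replicate block, OAS3 lost its fall in pair 2 (adjusted p = 0.0598), and the counts that rose and fell were 5 and 5 in pair 1, 6 and 4 in pair 2 and 0 and 1 in pair 3, while 17 differed among clones and 12 between pairs. Depth limits CGAS, OASL, MX1, MX2, XAF1 and RSAD2, which had few reads in each library, and small changes of these genes were not detectable at this depth.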
